A study of Rattus norvegicus with 24 samples.

Results

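Trpm8 neurons were taken as the dorsal root ganglion cells in which Trpm8, the cation channel opened by cool temperatures and menthol, reached 50 CPM (UMIs of the gene per 1000000 UMIs of the cell). A QC cell, the unit counted here, had 500 genes or more, 1000 UMIs or more and under 5% of its UMIs from the 13 mitochondrial protein genes. In all, 157 of 1433 QC cells were Trpm8 neurons, 110 of 930 in the labelled libraries and 47 of 503 in the added libraries. Because the level of Trpm8 chose these cells, its values are a description and carry no test.

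Each library held single neurons picked by hand from the L4-L5 dorsal root ganglia of male Sprague-Dawley rats and amplified by a modified Smart-seq2 protocol with UMIs. The labelled set of 17 libraries came from 16 ganglion samples, 4 from sham animals, whose sciatic nerve was exposed and left uninjured, and 4, 3 and 5 taken 1, 3 and 7 days after spared nerve crush (SNC). In SNC a 30 s crush was applied to the tibial and the common peroneal nerve while the sural nerve was spared, and the dyes that marked crushed and uncrushed neurons are not in the cell names, so both kinds are pooled here. The added set of 7 libraries is labelled as sham at 0 days (S1, S2 and S7), 1 day (S3 and S6), 3 days (S4) and 7 days (S5), and was analysed apart. In the labelled set, sham included, the sciatic branches had been injected with the dyes DiI and DiO, per the study's methods 2 weeks before surgery, and dye-filled neurons were picked, so these cells are not a random draw of the ganglion. The study lists a further group of neurons collected for subtype annotation without naming a dye, and whether the added cells were chosen by dye or came from injected nerves is not given in the sources used here. Set, dye labelling and nerve injection therefore cannot be told apart in any comparison of labelled with added libraries. The labels give at least 5 rats per time point and do not tie rats to samples, so the p-values below measure only the spread between these samples.

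Menthol- and cold-sensitive neurons are small-diameter sensory neurons whose Trpm8 channels open on mild cooling, and they are needed for most behavioural responses to cool skin. In rodent atlases their main class is marked by the transcription factor Foxp2, the cadherin Cdh8 and the opioid precursor Penk, while weaker Trpm8 expression is also found among peptidergic neurons. After nerve damage, sensory neurons switch on regeneration genes such as Atf3, Jun and Gal, and cold hypersensitivity is a common sign of neuropathic pain.

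Of 8 listed injury genes 7 were tested in Trpm8 neurons, and none was called between labelled sham and SNC. Atf3, the stress-induced transcription factor, stood at 628 ± 320 CPM (SD, n = 4) in Trpm8 neurons of labelled sham samples and at 460 ± 89.4 (n = 4), 613 ± 156 (n = 3) and 418 ± 194 (n = 5) at 1, 3 and 7 days after SNC, whereas in the added sham libraries it stood at 137 ± 85.9 CPM (n = 6). Galanin, a neuropeptide that is low in uninjured sensory neurons, stood at 1037 ± 642 CPM in labelled sham Trpm8 neurons and at 2.73 ± 2.33 CPM in the added ones. Medians over pooled single cells, which are not replicates, were higher after SNC for some genes of the list and not for others. Sprr1a, a regeneration gene, had a median over other cells of 18.7 CPM in sham and of 72.3, 70.4 and 141 CPM at 1, 3 and 7 days, and Sox11, a regeneration transcription factor, of 0 against 7.80, 8.37 and 9.16 CPM. Ecel1, another gene of the list, had a median of 83.9 CPM in sham and of 70.3, 63.1 and 82.5 CPM after SNC. Summed per sample, Sprr1a in the other cells was 158 ± 116 CPM in sham and 174 ± 54.9, 148 ± 28.2 and 146 ± 65.6 CPM after SNC. For Sox11 these values were 12.2 ± 6.92 CPM and 15.1 ± 2.68, 15.8 ± 3.76 and 12.6 ± 5.50 CPM. Sham and SNC groups overlapped for both of these summed genes. Each comparison with labelled sham below rests on samples with these levels. Library totals ran from 4002503 to 28975829 UMIs in the labelled samples and from 14004136 to 40732975 in the added ones, no cell name was shared between libraries, and no 2 cells held identical counts.

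Trpm8 itself was spread over a continuous range with no gap at 50 CPM. Among labelled QC cells, 331 had no Trpm8 UMI, 365 lay above 0 and under 20 CPM, 124 from 20 to 50 CPM, 44 from 50 to 100 CPM, 33 from 100 to 200 CPM and 33 at 200 CPM or more. The corresponding numbers in the added set were 200, 180, 76, 29, 14 and 4. The labelled cell just inside the threshold held 50.4 CPM and the one just outside 48.7 CPM, and in the added set these values were 50.05 and 49.98 CPM. Labelled Trpm8 neurons had a median of 121 CPM with a highest value of 1114 CPM, and added ones a median of 91.7 and a highest value of 621 CPM. The calls rested on a median of 33 Trpm8 UMIs per labelled member and 43 per added member, although 4 labelled members had a single UMI.

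Low Trpm8 counts were widespread outside the Trpm8 neurons. In the labelled set 489 of 820 other cells (59.6%, median depth 236126 UMIs) held at least 1 Trpm8 UMI. Cells were also clustered with Trpm8 left out. Among the 57 labelled cells of the cluster led by the itch peptides Sst and Nppb, a type that should lack the gene, 47 (82.5%, median depth 311100 UMIs) held a Trpm8 UMI, at a mean of 13.8 and a maximum of 44.9 CPM. No cell of that cluster reached 50 CPM, nor did any of the 91 cells of the cluster led by S100b and Spp1, genes of large myelinated neurons, where the highest value was 28.1 CPM. In the S100b and Spp1 cluster 44 of the 91 cells (48.4%, median depth 526885 UMIs) held a Trpm8 UMI. The share of other cells with a Trpm8 UMI lay between that of this cluster and that of the itch cluster. Each of the remaining labelled clusters held Trpm8 neurons, down to 2 of 72 and 2 of 68 cells, with highest values of 68.5 and 83.6 CPM. Added clusters with similar leading genes did cross the threshold. The one led by Sst and Ifitm1 held 1 Trpm8 neuron among 28 cells, at 167 CPM. The one led by Atp1b1 and S100b held 1 among 97, at 210 CPM. No expression was read from a UMI alone.

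Foxp2 and Cdh8, but not Penk, marked more than 50% of the labelled cells at the upper end of the Trpm8 range and few of the other cells that the rule selected. Foxp2 reached 20 CPM in 23 of the 110 labelled Trpm8 neurons, Cdh8 in 25 and Penk in 8, and 81 had none of these 3 genes at that level. Of the 33 labelled cells at 200 CPM of Trpm8 or more, 19 (57.6%) had Foxp2, 18 had Cdh8 and 5 (15.2%) had Penk at 20 CPM, and 14 (42.4%) had none of the 3, but of the 77 cells between 50 and 200 CPM only 4 (5.19%) had Foxp2 and 7 had Cdh8. In the added set 2 of the 47 Trpm8 neurons had Foxp2 at that level, both among the 4 cells at 200 CPM or more, of which the other two had none of the 3 genes, and 42 of the 47 had none of the 3 genes. Read the other way, 23 of the 35 labelled QC cells with Foxp2 at 20 CPM were Trpm8 neurons, as were 2 of 6 in the added set. The cells are therefore called by their rule here, and not cold-sensing neurons. Neither the 200 CPM division nor the Foxp2 division was part of the rule, and both were chosen after the values had been seen, so they carry no test.

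**Figure D1:**
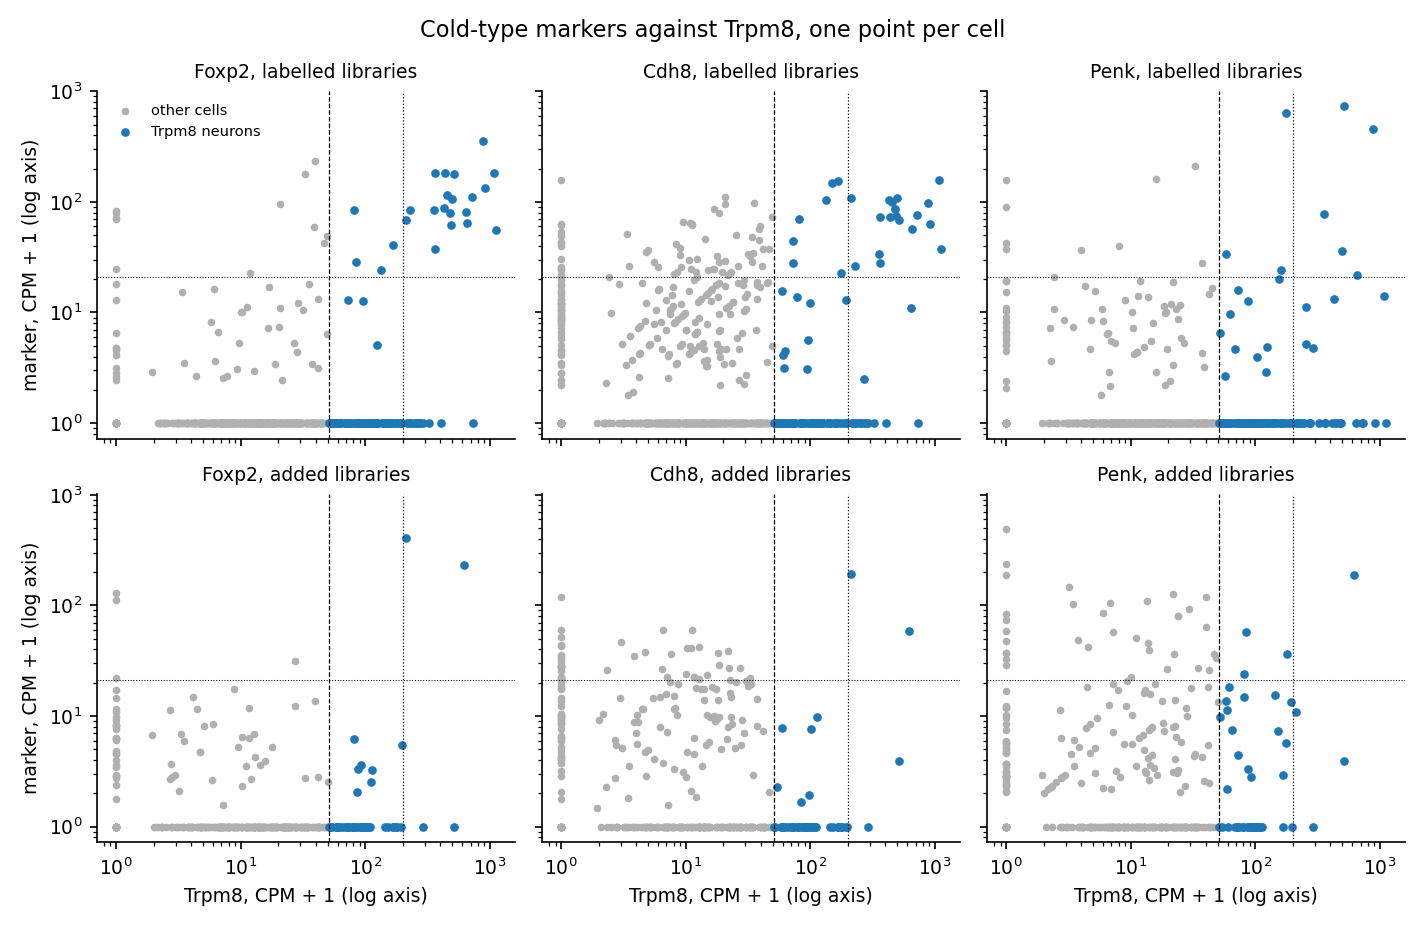
Each point is 1 QC cell, with Trpm8 on the horizontal and Foxp2, Cdh8 or Penk on the vertical log axis, both as CPM + 1; the upper row holds the labelled and the lower row the added libraries, the vertical lines mark 50 (dashed) and 200 CPM (dotted) and the horizontal line 20 CPM. Among labelled cells at 200 CPM of Trpm8 or more, 19 of 33 lie above the Foxp2 line, against 4 of 77 between 50 and 200 CPM.

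Labelled Trpm8 neurons with and without Foxp2 are described here by means or medians over cells for picked genes. No test between them was run over all genes. Of the 23 with Foxp2, 13 came from samples taken 3 days after SNC, so the Foxp2 division and surgery group are partly mixed. The 23 with Foxp2 at 20 CPM came from 10 samples and had a median of 449 CPM of Trpm8, whereas the 87 without it came from all 16 samples and had a median of 101 CPM. Mean Cdh8 was 73.6 CPM in the former and 3.54 CPM in the latter, and mean Penk was 58.3 and 8.95 CPM.

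Some other genes, also picked after their values were seen, had higher means in cells with Foxp2. The neuropeptide gene Nts averaged 166 CPM in cells with Foxp2 and 1.80 CPM in cells without. The zinc finger gene Zfp521 averaged 65.6 against 6.59 CPM, and Runx1, a transcription factor of small nociceptors and thermoreceptors, 117 against 25.8 CPM. Kcnk2, which encodes the TREK-1 background potassium channel, averaged 76.9 against 16.1 CPM.

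Several genes, picked after their values were seen, had higher means in cells without Foxp2. The stem cell factor receptor gene Kit averaged 64.0 CPM in them and 6.95 CPM in cells with Foxp2, and the transcription factor Bcl11a 48.5 and 5.99 CPM. Asic3, an acid-sensing channel of muscle and skin afferents, averaged 456 and 71.6 CPM, the M-type potassium channel gene Kcnq5 87.4 and 2.47 CPM, and the mechanosensitive channel gene Piezo2 192 and 25.3 CPM. Scn10a, the sodium channel Nav1.8 of nociceptors, averaged 144 and 33.5 CPM. Other nociceptor genes did not follow this order. Gfra3, the artemin receptor, had a median of 332 CPM in cells without and of 497 CPM in cells with Foxp2. Mean Trpv1 was 42.7 and 54.4 CPM, and mean Trpa1 31.0 and 39.8 CPM. Mean Tac1, the substance P precursor, was 838 and 825 CPM, with medians of 349 and 794 CPM. Cells of 1 sample share their source, and these means are over cells.

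The 2 added Trpm8 neurons with Foxp2 had means of 124 CPM for Cdh8 and 171 CPM for Kcnk2. Zfp521 and Runx1 both averaged 136 CPM in them, and Asic3 17.2 CPM. In the 45 added Trpm8 neurons without Foxp2 those means were 0.625, 14.1, 3.44, 40.1 and 338 CPM. Nts was low in both kinds, at 2.49 and 4.29 CPM.

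Detection changed with the Trpm8 level along 2 different courses. In labelled cells Kit reached 20 CPM in 24.2% of cells with no Trpm8 UMI, 59.1% of those from 50 to 100 CPM, 63.6% of those from 100 to 200 CPM and 30.3% of those at 200 CPM or more. For Bcl11a these shares were 15.4%, 43.2%, 60.6% and 33.3%, and for the calcium-binding protein gene Chp2 6.04%, 29.5%, 54.5% and 27.3%. Foxp2 went from 1.51% through 4.55% and 6.06% to 57.6%. The middle of the Trpm8 range was thus richest in Kit, Bcl11a and Chp2, and its top was richest in Foxp2 and Cdh8. Labelled cells with no Trpm8 UMI were shallower, at a median of 120804 UMIs. Those from 50 to 100, from 100 to 200 and at 200 CPM or more had medians of 262116, 239667 and 238733 UMIs. The part of depth in these shares was not tested.

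**Figure D2:**
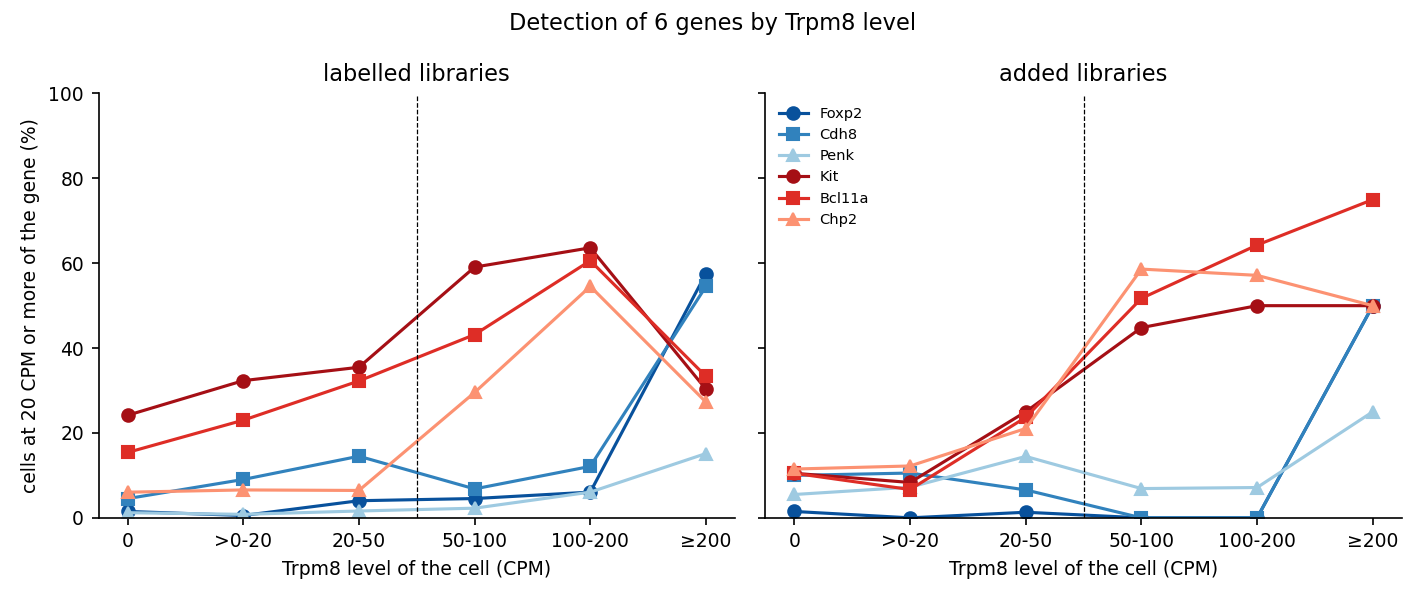
Share of QC cells (%) at 20 CPM or more of Foxp2, Cdh8, Penk, Kit, Bcl11a and Chp2, by the Trpm8 level of the cell in CPM, in labelled (left) and added (right) libraries; the dashed line marks the 50 CPM threshold, and no error is drawn since cells of 1 sample are not independent. In the labelled set Kit peaks at 63.6% from 100 to 200 CPM, where Foxp2 stands at 6.06%, and the added bin at 200 CPM or more holds only 4 cells.

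The clustering without Trpm8 put the members mainly in 3 of the 10 labelled clusters. Of 110 Trpm8 neurons, 48 fell in a cluster of 85 cells led by Fxyd7, S100b and Cpne6, with members from all 16 samples. A further 20 fell in a cluster of 186 cells led by Gal and Timp1, and 20 in a small cluster of 29 cells led by Atp1b1 and Cbln2, with members from 9 samples. The small cluster held 16 of the 33 cells at 200 CPM or more, its members had a median of 442 CPM of Trpm8, and the members in the cluster of 85 cells had a median of 123 CPM. Another 7 members lay in a cluster led by Apoe and Sparc, genes that are abundant in satellite glia, and 4 of these were at 200 CPM or more. In the added set 39 of 47 members lay in 1 cluster of 136 cells led by Cd9. Among the 10 nearest cells in the same space, a labelled Trpm8 neuron had on average 53.7% Trpm8 neurons and another cell 5.72%. That share was 28.9% for members from 50 to 100 CPM and 74.8% for those at 200 CPM or more. As the clusters were built from the genes of these cells, their leading genes are names and not results.

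The share of Trpm8 neurons varied widely between samples and did not differ between surgery groups beyond that spread. In labelled sham samples it was 4.17, 12.5, 12.5 and 14.9% of QC cells (sample 18, 4, Xin and 10; mean 11.0 ± 4.70%, SD, n = 4). At 1 day after SNC it was 8.33, 8.51, 12.5 and 18.8% (mean 12.0 ± 4.88%, n = 4), at 3 days 10.6, 15.8 and 18.8% (mean 15.1 ± 4.10%, n = 3), and at 7 days 4.17, 10.4, 12.5, 12.5 and 16.7% (mean 11.25 ± 4.56%, n = 5). All 4 groups overlapped. Samples 17-1 and 17-2 (1 day) and samples 19-1 and 19-2 (7 days) share a number and a date of reverse transcription, but were counted as separate samples. With each of these pairs merged, the difference from sham was 1.54 points at 1 day and -0.60 points at 7 days. The largest difference from sham, 4.04 points at 3 days, was 0.477 points with cells counted from 20 CPM and 2.26 points from 100 CPM. Two-sided exact permutation tests against sham gave p = 0.857, 0.314 and 1.0 at 1, 3 and 7 days (Benjamini-Hochberg adjusted over the 3 tests 1.0, 0.943 and 1.0), where the smallest p these designs allow is 0.0286, 0.0286 and 0.00794.

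Reverse transcription was run in an earlier and a later series of dates, and only sham sample 18, the lowest, belonged to the later one. Within the earlier series the share was 4.27 percentage points lower at 7 days than in sham (3 samples against 3, exact permutation p = 0.3, smallest possible 0.1). Of these samples, 2 sham and 2 7-day samples share their dates in pairs, and the 7-day minus sham difference was -8.33 points for samples 8 and 4 and -2.39 points for samples 9 and 10, too few pairs for a test. This pairing was chosen after the values were seen. Within the later series the single sham sample gave differences of 7.86, 10.9 and 10.4 points at 1, 3 and 7 days, with no test. The small differences at 1 and 7 days also changed sign with single samples. At 1 day the difference was -1.23 points without sample 16 and -1.27 without sample 18. At 7 days it was -2.05 points without sample 18, -1.12 without sample 19-2 and -0.08 without sample 9 or sample 19-1.

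The added libraries held 2.27, 5.21, 5.81, 6.52, 12.5, 12.5 and 16.8% Trpm8 neurons (S1, S3, S4, S2, S6, S7 and S5; mean 8.81 ± 5.19%, n = 7), against 11.0 ± 4.70% in labelled sham (exact permutation p = 0.5). Counted from 100 CPM the shares were 3.42 ± 2.01% in added and 7.89 ± 5.34% in labelled sham, a gap of 4.47 points against 2.21 points at 50 CPM (exact permutation p = 0.0636). Single-sample shares rest on 24 to 96 cells. For S1, 1 of 44 cells gives a 95% Wilson interval from 0.402 to 11.8%, which covers counting error only. Cells at 200 CPM or more made up 3.16 ± 3.65% of labelled sham and 0.936 ± 1.59% of added cells.

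**Figure D3:**
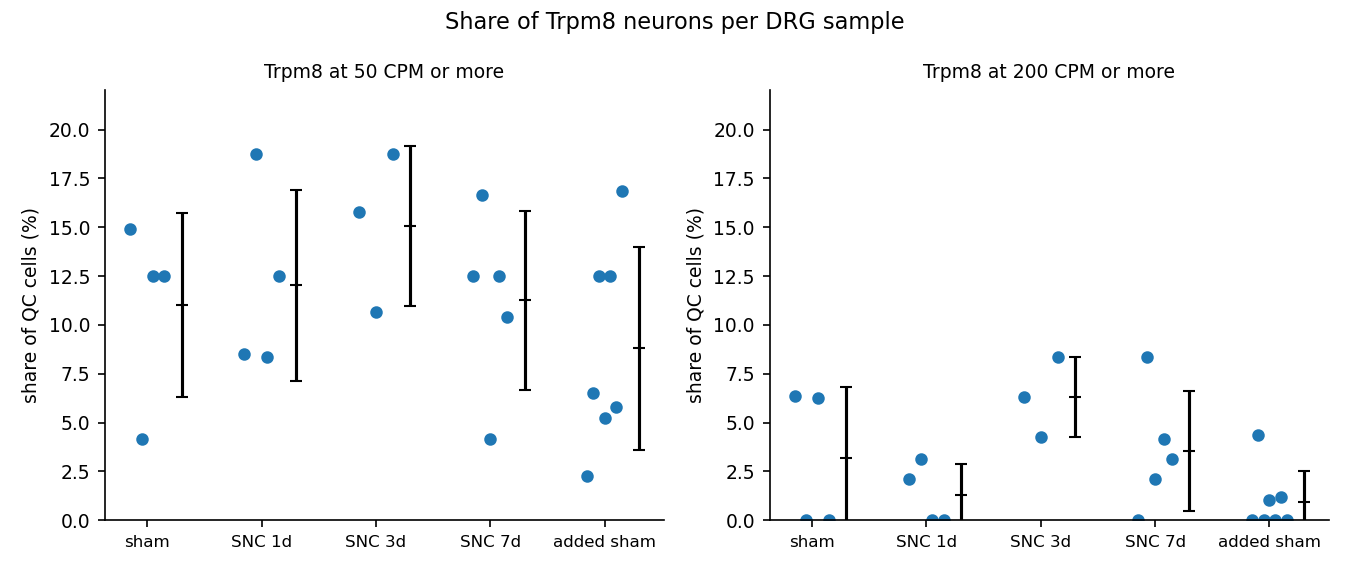
Each point is 1 ganglion sample, with the share of QC cells (%) that are Trpm8 neurons at 50 CPM (left) or 200 CPM (right), and bars give the mean ± SD of sham, the 3 SNC times and the added sham libraries. At 50 CPM the group means lie between 8.81 and 15.1% and all groups overlap.

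Trpm8 neurons with Foxp2 were unevenly spread over the surgery groups, as a count without a test: 5 of 20 members in sham, 2 of 31 at 1 day, 13 of 34 at 3 days and 3 of 25 at 7 days after SNC. Sham cells with Foxp2 came from 2 of 4 samples and 3-day cells from all 3. The summed Foxp2 level of Trpm8 neurons was 14.7 ± 15.6 CPM in sham, 1.69 ± 2.51 at 1 day, 30.9 ± 5.73 at 3 days and 9.67 ± 8.94 CPM at 7 days. At 1 day the difference from sham was -2.70 on the log2 scale (SE 0.95, adjusted p = 0.517 over all genes, edgeR), and at 3 days 0.97 (SE 0.89, adjusted p = 0.926). Cdh8 had a similar order, with 20.5 ± 21.7, 1.97 ± 1.79, 20.6 ± 7.13 and 6.84 ± 8.63 CPM, and its difference at 1 day of -3.33 (SE 0.92) had an adjusted p of 0.459 in edgeR. No difference in either gene passed the threshold. Fewer cells of a type and less RNA per cell cannot be told apart in such sums.

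Depth differed by less than the spread between samples in the labelled set, and was higher in Trpm8 neurons of the added set. The median UMI count per sample was higher in Trpm8 neurons in 8 of 16 labelled samples (mean log2 difference -0.26 ± 1.10, SD, exact permutation p = 0.405 by sign changes). In the added set it was higher in 6 of 6 libraries with at least 2 members (0.49 ± 0.31, exact permutation p = 0.0312, the smallest that 6 pairs allow), and genes per cell were higher in 6 of 6 as well (0.10 ± 0.03, exact permutation p = 0.0312). Adding S1, with its single member, brought the UMI difference to 0.32 and its p to 0.156. The part of depth in the added comparisons was not tested beyond thinning cells to 20000 UMIs, which is given in the closing section.

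Trpm8 neurons were then compared with the other cells of the same samples by summing counts per sample and class, with the sample as a block and edgeR's quasi-likelihood test across all genes. In the labelled set (16 samples) 457 of 11356 tested genes (4.02%) were higher in Trpm8 neurons and 701 (6.17%) lower at an adjusted p under 0.05. In the added set (6 libraries) 603 of 13062 (4.62%) were higher and 716 (5.48%) lower. Counts of called genes in every list below stand beside these shares over all tested genes. The added total of 1319 genes fell to 778, 775 and 721 without S3, S5 and S6, and to 357 with no replicate block, while the labelled total of 1158 fell to 752 with no block. Among genes tested in both sets, 200 were called higher in both, which is 45.0% of the labelled and 34.7% of the added calls, and 297 were called lower in both (44.1% and 50.0%). Another 5 genes were called in opposite directions: F2rl2 and Isyna1 were lower in labelled and higher in added Trpm8 neurons, and Gabra5, Glrx and LOC100912195 the reverse. Genes whose expression follows Trpm8 across cells are not independent of the choice of cells, and values below are from these sums, as CPM after TMM scaling, with log2 differences of Trpm8 neurons minus other cells.

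Of the 3 cold-class markers none was called in either set. Cdh8 stood at a lowest value of 0, a median of 6.45 and a highest value of 49.9 CPM in labelled Trpm8 neurons and at a median of 4.33 and a highest value of 8.50 CPM in other cells (log2 difference 0.90, SE 0.52, edgeR adjusted p = 0.342, higher in 7 of 16 samples). Foxp2 and Penk were too low to be tested in the labelled set. With no filter Foxp2 was 3.71 higher on the log2 scale (adjusted p = 0.000742, edgeR), while in the added set its difference was 0.52 (SE 1.504, adjusted p = 0.894, higher in 2 of 6). Penk in the added set differed by -0.52 (SE 0.66, adjusted p = 0.726).

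Kit, the receptor for stem cell factor and a marker of peptidergic subtypes, was higher in 16 of 16 labelled and 6 of 6 added samples. Labelled Trpm8 neurons ranged from 31.0 over 62.2 to 144 CPM and other cells from 6.47 over 24.0 to 53.0 CPM (log2 difference 1.35, SE 0.18, edgeR adjusted p = 1.45e-05). In the added set Trpm8 neurons ranged from 97.9 over 111 to 163 CPM and other cells from 2.93 over 15.9 to 30.0 CPM, without overlap (3.17, SE 0.41, adjusted p = 0.00104). The class difference was larger in the added set by 1.82 on the log2 scale (SE 0.40, adjusted p = 0.0311). Ngfr, the low-affinity neurotrophin receptor, was also higher in both sets, by 0.50 (SE 0.12) and 0.74 (SE 0.10).

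Of the 11 peptidergic markers tested, 2 were higher, Kit among them, and 2 lower (Gfra3 and Tac1) in labelled Trpm8 neurons, with a list median of -0.27 against -0.03 over all tested genes. Of the same markers 3 were higher in the added set, Calca and Kit among them, and none was lower, with a median of 0.19 against -0.01. Calca, the CGRP gene, stood at 1771 ± 339 CPM in added Trpm8 neurons (log2 difference 0.83, SE 0.10, edgeR adjusted p = 0.000682). In the labelled set its difference was 0.33 (SE 0.26, adjusted p = 0.514). Tac1 was lower by 0.64 in the labelled set (SE 0.18, adjusted p = 0.0209, 3 of 16 samples higher). That call turned to 0.14 higher when members were taken from 20 CPM.

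Nonpeptidergic nociceptors bind isolectin and rely on the GDNF receptor Ret, and their markers were lower in Trpm8 neurons of both sets. In the labelled set 6 of 8 tested were lower and none higher (list median -1.16), and in the added set 8 of 9 were lower (median -2.22). Ret ranged from 23.9 over 73.9 to 169 CPM in labelled Trpm8 neurons and from 111 over 129 to 227 CPM in other cells (log2 difference -0.97, SE 0.15, edgeR adjusted p = 0.000123, lower in 15 of 16). P2rx3, an ATP-gated channel, was only moderately lower, by -0.51 (SE 0.12) and -0.64 (SE 0.11). The plexin gene Plxnc1 was lower in 15 of 16 labelled and 6 of 6 added samples, by -1.35 (SE 0.21) and -2.22 (SE 0.22), and the lysophosphatidic acid receptor gene Lpar3 was lower in both sets too.

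Markers of itch neurons, which make somatostatin and natriuretic peptide B, were lower as well, with list medians of -2.44 in the labelled and -1.70 in the added set. In each set 5 itch markers were lower, of 7 tested in the labelled and 6 in the added set, and they were Il31ra, Jak1, Nppb, Osmr and Sst. Nppb had medians of 6.30 CPM in labelled Trpm8 neurons and 66.5 CPM in other cells (log2 difference -3.12, SE 0.31, edgeR adjusted p = 5.18e-07). Il31ra, the receptor for the itch cytokine interleukin 31, ranged from 0 to 2.98 CPM in labelled Trpm8 neurons and from 1.88 to 42.6 CPM in other cells. When members were taken from 20 CPM, none of these 5 genes was called in either set.

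Markers of large myelinated neurons and of C low-threshold mechanoreceptors were lower where they were called. Among the former, 4 of 11 in the labelled and 5 of 12 in the added set were lower and none higher, with Pvalb, Shox2 and Spp1 in both. The others tested were not called, and the summed level of the list overlapped between the classes. Its medians were 3828 CPM in labelled Trpm8 neurons and 3956 CPM in other cells, and 5225 and 5554 CPM in the added set. Shox2, a transcription factor of touch neurons, ranged from 0 to 4.81 CPM in labelled Trpm8 neurons and from 0 to 84.0 CPM in other cells (log2 difference -5.50, SE 0.40, edgeR adjusted p = 1.03e-08). For C low-threshold mechanoreceptors 1 of 4 was lower in the labelled set (Cdh9) and 5 of 5 in the added set. Tafa4 stood at 1.25 ± 0.89 CPM in added Trpm8 neurons and at 18.0 ± 4.31 CPM in the other cells.

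Among 24 channels linked to cold excitability, the M-current channel gene Kcnq5 and the acid-sensing channel gene Asic3 were higher in both sets. Kcnq5 ranged from 14.4 over 68.5 to 228 CPM in labelled Trpm8 neurons and from 10.2 over 29.4 to 57.3 CPM in other cells (log2 difference 1.36, SE 0.19, edgeR adjusted p = 3.8e-05, 15 of 16 samples). The added values ranged from 180 to 515 CPM against 16.0 to 192 CPM (1.91, SE 0.26, adjusted p = 0.00136). Asic3 was higher by 0.77 (SE 0.13) and 1.31 (SE 0.13). These are also genes that were low in the cells with Foxp2.

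Kcnk18, which encodes the background potassium channel TRESK, was lower in both sets, by -3.30 (SE 0.52) and -2.48 (SE 0.52). In the whole channel list 3 of 22 were higher and 3 lower in the labelled set (median -0.17) and 3 higher and 2 lower in the added set (median 0.07). Over all tested genes 4.02% were higher and 6.17% lower in the labelled set (median -0.03). In the added set these shares were 4.62% and 5.48% (median -0.01).

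No other temperature-gated TRP channel was called higher in Trpm8 neurons. Trpv1, the capsaicin and heat receptor, stood at 47.4 ± 44.5 CPM in labelled Trpm8 neurons and 63.2 ± 30.5 CPM in other cells (log2 difference -0.60, SE 0.30, edgeR adjusted p = 0.258), and in the added set at 154 ± 25.3 and 187 ± 78.0 CPM (-0.20, SE 0.14, adjusted p = 0.465). Trpa1, the irritant receptor, was lower in the labelled set by -1.31 (SE 0.36, adjusted p = 0.0207), a call that became 0.19 when members were taken from 20 CPM. Of 8 TRP channels tested in the labelled set 2 were lower, Trpa1 among them, and of 9 in the added set 2, Trpc6 among them, with none higher. Of the genes known to act on the TRPM8 channel, 1 of 13 was higher and 1 lower in the labelled set (Plcb1 and Plcb3), and 2 of 14 higher in the added set (Plcb1 and the bradykinin receptor gene Bdkrb2). Over all tested genes the shares were 4.02% higher and 6.17% lower in the labelled set and 4.62% and 5.48% in the added set. Plcb1, a phospholipase that breaks down the lipid TRPM8 needs, was higher by 1.06 (SE 0.18) and 1.68 (SE 0.42).

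Of 37 sensory neuron transcription factors, Bcl11a, Bcl11b, Etv5 and Pou4f3 were higher in both sets. Bcl11a ranged from 12.3 over 54.6 to 135 CPM in labelled Trpm8 neurons and from 0 over 11.5 to 21.1 CPM in other cells (log2 difference 2.03, SE 0.31, edgeR adjusted p = 9.55e-05, 15 of 16 samples). The added values ranged from 57.0 to 139 CPM against 1.61 to 11.9 CPM, without overlap (3.78, SE 0.46, adjusted p = 0.000719). Bcl11b rose alongside, by 1.89 (SE 0.35) and 2.49 (SE 0.53). Etv5 did not keep its direction in cells at 200 CPM or more, with -0.24 and -0.68.

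The POU factor gene Pou4f2 and the homeobox gene Meis2 were lower in both sets. Pou4f2 differed by -2.30 (SE 0.46) and -2.86 (SE 0.23), and Meis2 by -3.18 (SE 0.48) and -2.67 (SE 0.39). Runx1 was lower by -0.76 (SE 0.22) and -0.64 (SE 0.16), although it was high in the cells with Foxp2. In all, 5 of 25 factors were higher and 8 lower in the labelled set, and 4 of 29 higher and 9 lower in the added set.

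**Figure D4:**
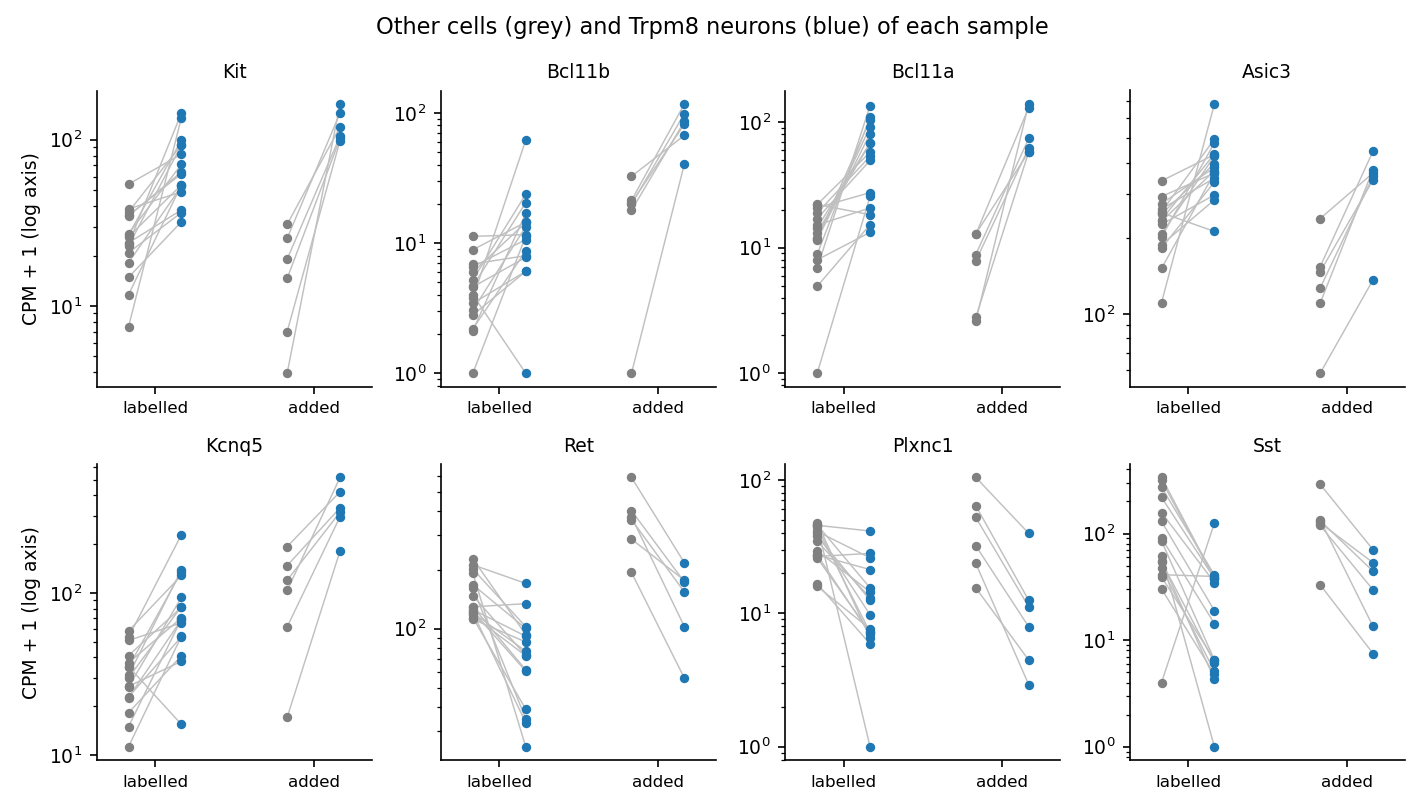
CPM + 1 (log axes, summed counts) of 8 genes in the other cells (grey) and Trpm8 neurons (blue) of each sample, joined by a line, for 16 labelled samples and 6 added libraries. Kit, Bcl11b, Bcl11a, Asic3 and Kcnq5 are higher in Trpm8 neurons of at least 15 of 16 labelled samples, and Ret, Plxnc1 and Sst lower in at least 15 of 16.

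The largest labelled increases that held in every sample, among genes at 20 CPM or more, began with Nppa, the atrial natriuretic peptide gene. It ranged from 4.82 over 119 to 1615 CPM in labelled Trpm8 neurons and from 0.499 over 4.74 to 20.9 CPM in other cells (log2 difference 4.66, SE 0.54, edgeR adjusted p = 3.22e-06). Among added libraries its difference was 4.32 (SE 0.74, adjusted p = 0.00451, 5 of 6). The silent potassium channel subunit gene Kcnv1 followed the same direction, with medians of 116 and 14.1 CPM (2.84, SE 0.29) and 2.23 (SE 0.33) in the added set. Ctxn2, Sema5a, Tmem100, Cdk18, Spock3, Arhgap26, Arap1 and Zeb2 were also at that end, as was Kit. Tmem100, a regulator of the TRPA1 and TRPV1 complex, differed by 2.19 (SE 0.22) and 2.33 (SE 0.45). Their levels differed between the clusters that hold the Trpm8 neurons, given here as a description. Labelled members in the cluster of 85 cells averaged 291 CPM of Nppa, 160 of Kcnv1, 67.3 of Tmem100 and 74.9 of Arap1. Members in the small cluster, where 19 of 20 had Foxp2 at 20 CPM, averaged 1.10, 3.99, 1.66 and 2.24 CPM.

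For the added libraries the same rule named Ebf2, Bcl11a, Serpinb8, Ajap1, Gria1, Prg2, Kit, Chp2, Rbp4, Aif1, Ly6h and Htr5b. The transcription factor gene Ebf2 stood at 27.4 ± 9.11 CPM in added Trpm8 neurons and 1.74 ± 0.80 in other cells (log2 difference 4.03, SE 0.34, edgeR adjusted p = 0.000134), and in the labelled set it differed by 3.39 (SE 0.37, adjusted p = 1.35e-06, 15 of 16). Gria1, an AMPA receptor subunit, differed by 3.42 (SE 0.39) and by 2.21 (SE 0.28) in the labelled set. Ly6h and Htr5b did not pass the labelled filter. Chp2 differed by 3.16 (SE 0.54) and 2.71 (SE 0.40), and Rbp4, a retinol carrier, by 3.00 (SE 0.49) and 1.41 (SE 0.25). Labelled members in the cluster of 85 cells averaged 99.8 CPM of Chp2 and 352 CPM of Rbp4, and those in the small cluster 0 and 13.2 CPM.

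Genes that the labelled rule named at the other end included Mab21l2, Reg3a, Adgrg2, Dsp, Nnat, Htr3a, Anxa1, Reg3b, Lgi1, Evc2 and Cfap57. Mab21l2 had the largest labelled decrease among them, at 3.14 ± 2.75 CPM in Trpm8 neurons and 43.8 ± 28.4 CPM in other cells (log2 difference -3.52, SE 0.21, edgeR adjusted p = 2.04e-10), and was lower by -3.36 (SE 0.26) in the added set. Anxa1, a phospholipid-binding protein of small neurons, was at 56.5 ± 57.8 against 306 ± 127 CPM (-2.65, SE 0.21). The secreted lectins Reg3a and Reg3b were lower in both sets. The added rule named Iapp, Tmem163, Shox2, Slc16a12, Drd2, Bpifb5, Ntng1, Rnf182, Hapln1, Adamts8, Crh and Mab21l2, of which the islet amyloid gene Iapp was lowest, at 0.475 ± 0.404 against 28.3 ± 18.8 CPM.

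The class difference was tested between sets in 1 model, and 60 of 13744 genes (0.437%) differed, 25 with a larger value in the added set and 35 with a smaller one. Cdh13, an adhesion molecule gene, stood at 171 ± 69.0 and 177 ± 26.9 CPM in labelled Trpm8 neurons and other cells and at 38.9 ± 11.2 and 128 ± 40.8 CPM in the added ones (interaction -1.68, SE 0.23, edgeR adjusted p = 0.00121). Drd2, the dopamine D2 receptor gene, differed by -0.43 (SE 0.35, adjusted p = 0.54) in the labelled set and by -3.86 (SE 0.35) in the added set (interaction -3.46, adjusted p = 0.012). Htr3a, an ionotropic serotonin receptor gene, went the other way, with -2.66 (SE 0.38) and -0.16 (SE 0.14) (interaction 2.29, adjusted p = 0.035). The added libraries are all sham and the labelled ones mostly SNC, and the sets also differ in depth and in the make-up of their members. At 200 CPM or more of Trpm8 were 33 of 110 labelled and 4 of 47 added members, and 23 and 2 had Foxp2 at 20 CPM. Whether the added cells were chosen by dye is not given. Surgery, depth, make-up of the members and dye labelling therefore cannot be told apart here.

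Summed genes of other cell types overlapped between the classes, although a few single genes were called. The glial sums were not low and stood above those of the immune, endothelial and fibroblast, and red cell genes. The summed level of 11 glial genes ranged from 194 over a median of 392 to 1607 CPM in labelled Trpm8 neurons and from 212 over 358 to 1472 CPM in other cells. The added medians were 650 and 732 CPM. Of 8 glial genes tested in the labelled set only the myelin gene Mbp was higher (133 ± 92.8 against 66.1 ± 42.9 CPM, log2 difference 0.94, SE 0.15, edgeR adjusted p = 0.000133), and none of 9 in the added set.

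The summed level of 9 immune genes had medians of 31.0 and 13.1 CPM in labelled Trpm8 neurons and other cells, with ranges of 0 to 67.0 and 7.80 to 63.5 CPM. Only Aif1 among them was higher, by 2.13 (SE 0.35) in the labelled and 2.96 (SE 0.47) in the added set, while Csf1r was lower in the added set. C1qa, C1qb, C1qc and Cd68, defining genes of macrophages, did not pass the filter in either set, and with no filter their differences were below 0 in both. Summed endothelial and fibroblast genes reached at most 74.0 CPM in any sample and class, and red cell genes at most 17.6 CPM in Trpm8 neurons. The part of glial RNA in the Mbp difference was not tested.

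Injury-associated genes did not separate Trpm8 neurons from their neighbours in the labelled set. Of 7 tested none was called there, with Atf3 at 522 ± 212 against 549 ± 170 CPM (log2 difference -0.03, SE 0.10, edgeR adjusted p = 0.932) and Gal at 845 ± 436 against 1036 ± 520 CPM (-0.27, SE 0.12, adjusted p = 0.178). Of 6 tested in the added set 1 was higher, the growth cone protein gene Gap43, at 990 ± 137 against 563 ± 119 CPM in 6 of 6 libraries (0.83, SE 0.09, adjusted p = 0.000483). The labelled difference for Gap43 was 0.24 (SE 0.09, adjusted p = 0.117, 13 of 16 samples higher), and the difference between the sets did not pass the threshold.

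SNC was compared with labelled sham within Trpm8 neurons at each time and over the mean of the times. No gene of 10446 passed an adjusted p of 0.05 in edgeR (0%) in any of these comparisons. The numbers at an unadjusted p under 0.05 were 898, 590 and 367 at 1, 3 and 7 days, with 5.98% of the genes for the mean, and DESeq2 called 1, 0, 0 and 0 genes. The single DESeq2 call was RGD1359290, named after its value was seen. The change of the class difference with SNC was called for 0 of 12966 genes (0%, 498 at an unadjusted p under 0.05, 1 by DESeq2, Il2rb). In the other cells the same edgeR comparison called 0 of 13916 genes at any time, so no gene was called in either class.

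**Figure D5:**
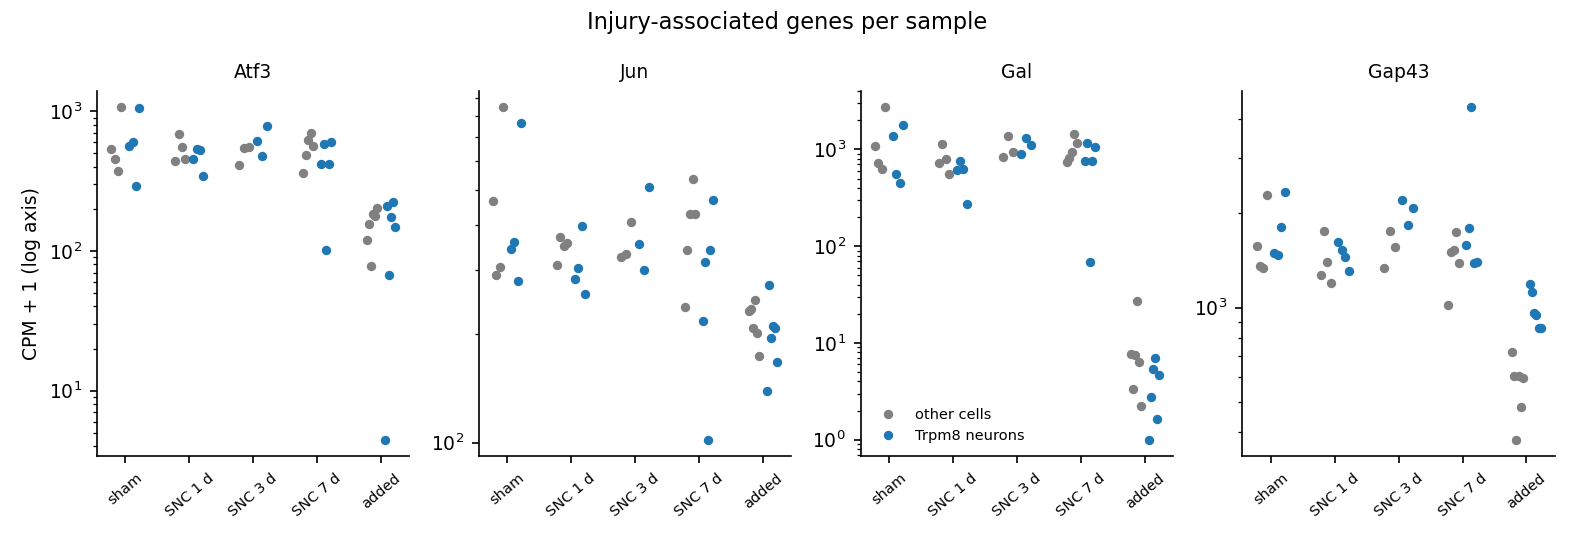
CPM + 1 (log axes, summed counts) of Atf3, Jun, Gal and Gap43 in the other cells (grey) and Trpm8 neurons (blue), 1 point per sample, for labelled sham, SNC at 1, 3 and 7 days and the added sham libraries. Labelled sham and SNC samples overlap for all 4 genes, and Gal averages 845 CPM in labelled and 2.73 CPM in added Trpm8 neurons.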

How the data were processed

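Single dorsal root ganglion neurons of rats were sequenced in 24 libraries. Per the labels and the study's methods, the authors aligned reads with STAR to Rnor_6.0, assigned them with featureCounts and collapsed UMIs with UMI-tools, and the deposited files hold UMI counts per gene and cell, not normalized. Summed UMIs per sample are given in the report, and they limit the precision of low genes.

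Groups came from the labels, the libraries S-2 and S-3 were taken as 1 sample, and cells were filtered and classed as stated in the report. The members, gene lists and tests were chosen with earlier results of these data known. Counts were summed per sample and class (at least 2 members), filtered with filterByExpr, TMM scaled and tested with edgeR 4.0.16 (R 4.3.3) with Benjamini-Hochberg adjustment over all genes; Trpm8 was left out. Alternatives used DESeq2 1.42.0 and limma 3.58.1. The class fits of both sets and the fit of the mean of the SNC times against sham were tested on simulated counts. Clusters came from Seurat 5.3.0 (2000 variable genes, 40 components, resolution 0.5) without Trpm8. No doublet caller was run, as cells were picked singly. Reads were UMI collapsed, and no strand setting was taken from the sources, so antisense genes cannot be told apart. Shares were compared by exact permutation of samples. Named genes were those of 20 lists and, per class comparison, up to 12 at either end with an adjusted p under 0.05, at least 20 CPM in the higher class and 1 direction in every sample. No 2 samples of a group agreed within sampling noise (lowest chi-square per degree of freedom 10.7). Some named genes are not reported here.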

Additional observations from a re-analysis of the deposited data

Results flagged for a closer look

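Among 33 groups of samples examined, 3 had a sample set far apart from the rest of its group, where chance gives about 1 in 20. The median Trpm8 level of members was 290 CPM in the added library S2, which has 3 members. Gap43 in Trpm8 neurons was 4521 CPM in 7-day sample 8, whose 2 members hold only 29658 UMIs together. Jun in Trpm8 neurons was 767 CPM in sham sample Xin.

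For 4 named genes the difference between Trpm8 neurons and other cells differed between the added and labelled sets by the interaction test of edgeR. The value, added minus labelled on the log2 scale, was -1.68 for Cdh13, -3.46 for Drd2, 2.29 for Htr3a and 1.82 for Kit.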

How the results depend on the processing

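The labelled count of 1158 genes called between Trpm8 neurons and other cells became 752 with no replicate block, 577 with at least 5 members per sample, 644 with members from 20 CPM, 327 in cells thinned to 20000 UMIs, 678 by limma on mean CPM, and 162 against other cells under 200 CPM of Nefh (only 11 cells; this was not run in the added set). Chosen after seeing the data, members from 200 CPM gave 678 and members from 50 to 200 CPM gave 695. DESeq2 kept 1153 of the 1158 calls and members from 50 to 200 CPM kept 623. The added count of 1319 became 357 with no replicate block, 798 with S1, 279 and 167 with members from 20 and 100 CPM, 606 thinned and 233 with members from 200 CPM (4 cells). Of these 1319 calls DESeq2 kept 1314, members from 50 to 200 CPM 1291, limma 809 and members from 200 CPM 129. From 200 CPM, 979 of the 1252 that could be tested kept their direction. Leaving out 1 sample gave 982 to 1204 in the labelled set and 721 (without S6) to 1887 (without S2) in the added set, with 778 without S3 and 775 without S5. DESeq2 called 148 genes for the difference between sets against 60.

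Within Trpm8 neurons, SNC calls with no filter on low counts were 75, 25, 61 and 69 at 1, 3 and 7 days and for the mean. DESeq2 called 1 at 1 day and 1 for the class difference. A term for the series of dates gave 2, 2, 0 and 1 (Mrpl43 and Pappa1, named after their values were seen). Leaving out a sample gave 0 at 1 and 7 days and for the mean, and 0 to 1 at 3 days (RGD1562420 without sample 14). The class difference without the first series of dates could not be fitted, as only 1 sham sample was left.

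The difference in share from sham at 1 day was -2.40 and -1.85 points at 100 and 200 CPM and -0.0587 thinned, where 50 CPM is 1 UMI. At 7 days it was -0.67 and -0.60 points at 20 and 100 CPM, -0.59 thinned, -0.60 with samples merged, -4.27 within the first series of dates and -5.36 within the 2 pairs of samples that share a date (chosen after seeing the data). At 3 days it fell from 4.04 to 0.477 and 2.26 points at 20 and 100 CPM. For labelled against added sham the difference went from 2.21 to 1.16, 4.47 and 2.22 points at 20, 100 and 200 CPM, and to 3.15 points thinned. Within the second series of dates the difference from sham was 7.86, 10.9 and 10.4 points at 1, 3 and 7 days. Leaving out a sample gave -1.27 to 2.30 at 1 day, 1.76 to 6.25 at 3 days, -2.05 to 2.01 at 7 days and 0.914 to 4.49 for labelled against added sham. The depth differences of the added set fell to 0.318 for UMIs and 0.0444 for genes with S1 included.

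Single genes turned direction on the log2 scale as follows. From 20 CPM, labelled Tac1 was 0.14, Trpa1 0.19 and Tshz2 0.27, and added Il31ra 0.22 and Reg3a 0.35. Against labelled cells low in Nefh, Jak1 was 0.24, Kcna1 3.23, Kcnk4 0.89, Ntrk3 0.22, P2rx3 0.12, Plcb3 0.29 and Stx1a -0.0734. From 200 CPM, labelled Etv5 was -0.24, and in the added set Asic3 was -1.01, Bdkrb2 -1.40, Calca -0.10, Cdh2 -0.23, Etv5 -0.68, Gfra3 -3.73, Hcn4 0.54, Kcnk3 2.85, Piezo2 -1.43, Rbfox3 -0.98, Scn10a -1.31, Syt2 -3.11, Tac1 -1.32 and Zfp521 0.43. Of the values for single genes under other settings, 5526 in the labelled and 3673 in the added set kept their side of the threshold and, where called, their direction. In the labelled set 192 lost a call, 57 gained one and 11 turned direction with a call in at least 1 of the settings. In the added set these numbers were 337, 112 and 16. The surgery groups share no replicate numbers, and the replicate block is the sample that both classes come from. For each change the cause was not tested.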

Other observations

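Opioid, cadherin and transmitter genes outside the cold-class markers gave few calls. Over all tested genes 4.02% were higher and 6.17% lower in the labelled set, and 4.62% and 5.48% in the added set. Of the opioid genes, the mu receptor gene Oprm1 was higher in added Trpm8 neurons, at 10.7 ± 2.01 against 4.30 ± 1.62 CPM in 6 of 6 libraries (log2 difference 1.37, SE 0.30, edgeR adjusted p = 0.0152), and at 8.78 ± 8.32 against 3.32 ± 1.57 CPM in the labelled set, where it did not pass (0.91, SE 0.31, adjusted p = 0.0623). Pdyn, the dynorphin precursor, was lower in the labelled set (-1.20, SE 0.31, adjusted p = 0.0137). Among the cadherins 3 of 10 were lower in the labelled set (Cdh7, Cdh9 and Cdh11), and of 11 in the added set 5 were lower (these 3 with Cdh1 and Cdh13) and 1, Cdh2, higher.

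Of the genes of transmitter release, 3 of 10 were higher, Slc17a6 and Stx1a among them, and 1 lower (Syt1) in the labelled set, and 1 of 12 was higher and 2 lower in the added set. Of 7 neurotrophic receptor genes tested in each set, 2 were higher and 3 lower. Slc17a6, the vesicular glutamate transporter VGLUT2, was higher in both sets, by 0.49 (SE 0.07) and 0.41 (SE 0.11), and the actin-binding sensory neuron gene Avil was lower in both, by -0.31 (SE 0.07) and -0.28 (SE 0.06). Correlation with Trpm8 was ranked only among genes averaging at least 20 CPM over the cells of a set, so low genes were not ranked. These were 6423 genes in the labelled and 7110 in the added set. Among them, the log levels that followed Trpm8 most closely over 930 labelled cells were those of Scg2, Ppp2r3a and Mgll (Pearson r = 0.31, 0.31 and 0.29). Over 503 added cells they were those of Gpr149, Filip1 and Adgrv1 (0.44, 0.40 and 0.39). These are descriptions over sparse counts that share libraries and depth.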
